A study of Mus musculus with 13 samples.

Results

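The comparison described here is EKLF-null against wild-type F4/80+ cells of the mouse fetal liver at E13.5, measured by bulk RNA-Seq. Its members are the 3 libraries labelled EKLF+/+ (wild type) and the 3 labelled EKLF-/- (null), taken by genotype from the sample labels, which is 6 of the 13 samples of the series. The remaining samples, sorted by an EKLF promoter reporter or sequenced as single cells, were not used. Cells that stained for the F4/80 antigen were sorted by FACS into Trizol, and poly-A RNA was sequenced as biological triplicates. The labels give the strain C57BL/6 and the age E13.5 for all 6 libraries, whereas the study's methods describe the null line (Klf1tm1Sho) in a 129S4/SvJae background. A difference of strain near or away from the Klf1 locus therefore cannot be told apart from the loss of EKLF.

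EKLF, encoded by Klf1, is a zinc finger transcription factor that binds CACCC sequences and activates genes of the red cell, among them adult beta-globin, heme enzymes and membrane proteins. In the fetal liver, erythroblasts mature in islands around a central macrophage, which binds them through adhesion molecules, supplies iron and engulfs the expelled nuclei. F4/80, the product of Adgre1, is a surface receptor of macrophages and is used to sort them. In bulk RNA, fewer cells of a type and less RNA per cell cannot be told apart, and this holds for every result below.

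Depth was similar in both groups, at 10695514 to 15362161 reads on genes per wild-type library and 12592603 to 13879718 per null library. The deleted gene was examined first. Its normalized counts, in the order of replicate number used throughout, were 4731, 3977 and 4906 for wild-type Klf1 libraries and 767, 838 and 746 for null ones. Every null library was below every wild-type library, as the labels require, and the log2 fold change was -2.53 ± 0.12 (SE, n = 3 per group; edgeR adjusted p = 7.22e-06). Gene counts do not show which exons the remaining Klf1 reads come from. Adgre1, the sorting antigen, had 349.9, 439 and 425 normalized counts in EKLF+/+ and 408, 526 and 383 in EKLF-/-. These groups overlapped, and Adgre1 did not pass the test (log2 fold change 0.12 ± 0.16, SE).

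The null libraries differed among themselves more than the wild-type libraries did. The first principal component of log2 CPM took 63.9% of the variance and had scores of -35.7, -38.2 and -33.7 in EKLF+/+, against 22.3, 54 and 31.4 in EKLF-/-. On the second component, with 15.9%, EKLF-/- replicate 2 scored 30.5 and the other null libraries -28 and -16.3. The change also moved with transcript length. When the 12609 tested genes with an annotated exon length were split into 4 equal sets, the median log2 fold change was 0.28 in the shortest set (up to 2044 bases) and -0.31 in the longest (from 4947 bases). EKLF-/- replicate 2 was farthest along this trend, with medians of 0.51 and -0.60 relative to the wild-type mean in those sets, against 0.11 and -0.12 in replicate 1 and 0.21 and -0.24 in replicate 3. What produced the trend was not tested. Calls are therefore also given for 7 further fits, 6 that each left out 1 library and 1 that corrected each library for exon length, and a call is termed kept where it held in the same direction in all 7. Y-linked counts summed to 2700 and 2600 in EKLF+/+ replicates 1 and 2 and to 2180 in EKLF-/- replicate 2, and were at most 3.63 in the other libraries, so embryos of both sexes were spread unevenly over the groups.

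Of 12753 genes tested, 1356 (10.6%) were called lower and 1239 (9.72%) higher in EKLF-/-, which is 20.3% in either direction, and in 46.3% of genes tested the 2 groups did not overlap. With library size alone in place of TMM factors the split moved to 1098 lower and 1655 higher. Leaving out EKLF+/+ replicate 1, 2 or 3 or EKLF-/- replicate 3 reduced the calls to between 575 and 632 lower and 346 and 426 higher. By contrast 1889 were lower and 1730 higher without EKLF-/- replicate 1, and 1734 and 1288 without EKLF-/- replicate 2. Kept calls numbered 439 lower (3.44% of genes tested) and 254 higher (1.99%). Falls were larger than rises: 591 genes fell and 275 rose by at least 2-fold, 150 and 56 by at least 4-fold, and 27 and 8 by at least 16-fold. The median log2 fold change was -0.91 among falls, 0.68 among rises and 0.02 over all genes tested. Of 4 equal sets by abundance, from the lowest to the highest counts, 11.3%, 9.63%, 9.35% and 12.2% of genes fell and 5.55%, 11.1%, 12.5% and 9.63% rose, so rises outnumbered falls in the middle sets.

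**Figure D1:**
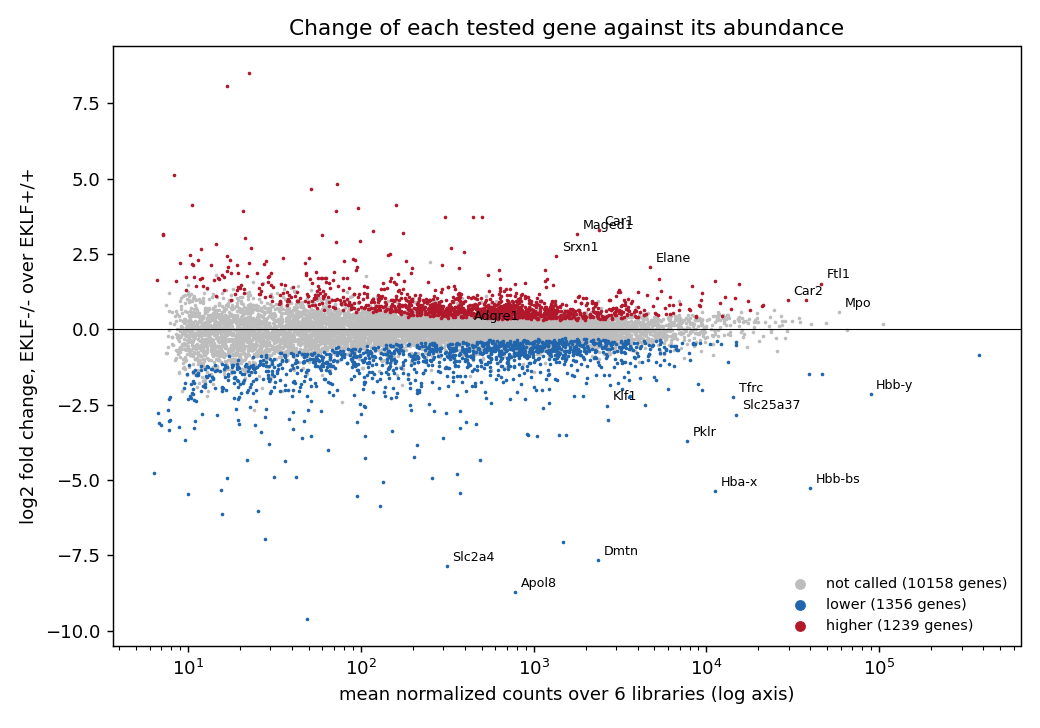
Each point is a tested gene, placed by its mean normalized counts over 6 libraries (horizontal log axis) and its log2 fold change, EKLF-/- over EKLF+/+ (vertical axis). Genes called lower (1356) are blue, genes called higher (1239) red and genes not called grey; the deepest falls reach below -7 and the largest named rises stay under 4.

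Among called, well-counted genes chosen for groups that did not overlap, the 15 largest falls ranged from 14.2-fold to 427-fold. The 15 largest rises ranged from 4.16-fold to 13.4-fold. Beyond Apol8, Slc2a4 and Dmtn at the head of the falls stood Nxpe2, a gene of the neurexophilin and PC-esterase family, with 2932, 2481 and 3361 normalized counts in EKLF+/+ and 24.5, 21 and 19.1 in EKLF-/-. Fn3k, whose product removes sugars bound to proteins, had 830.0, 491 and 869 against 22.7, 13 and 14.1. Slc26a1, an anion exchanger of sulfate and oxalate, had 510.3, 454 and 542 against 13.6, 13 and 22.1. All 3 genes were 30-fold or more lower. Mgll, which splits monoacylglycerol, fell from 914, 833 and 1067 to 45.4, 38.9 and 55.3, and 1300017J02Rik, which encodes an inhibitor of carbonic anhydrase, from 672, 662 and 745 to 29.9, 24 and 20.1. The calcium-activated chloride channel gene Ano1 was 19.3-fold lower, and Sh3tc2 and Sowaha were 58.8-fold and 33.4-fold lower. Slc2a4, the insulin-responsive glucose transporter, had 3 or fewer reads in each null library. Its 1813 reads in EKLF+/+ against 8 in EKLF-/- give a ratio per read on genes of 234 (95% counting interval 119 to 543). That interval pools the libraries of each group and leaves out the variation between them.

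Behind BC021767, Btn1a1 and Ripor3, the 3 largest rises, Car1 (carbonic anhydrase 1) had 344, 512 and 466 normalized counts in EKLF+/+ and 4345, 4493 and 4111 in EKLF-/-. Maged1, a MAGE family adaptor, had 318, 421 and 342 against 3262, 3097 and 3244. Srxn1, which restores overoxidized peroxiredoxins, had 416, 477 and 379 against 2181, 2149 and 2516. In these 3 genes each null library was at least 4 times as high as any wild-type library. Hopx, a homeodomain-only protein without DNA binding, rose 6.51-fold, and Gsta4, a glutathione transferase for lipid peroxidation products, 5.94-fold. Cntnap2, Fam160a1, Kctd11, Abtb2, Proser2 and Ank3 rose between 4.37-fold and 9.65-fold from low levels, and the mean of each in EKLF+/+ was under 110 normalized counts. Elane, which encodes neutrophil elastase, had 2137, 1755 and 1603 in EKLF+/+ and 3885, 13404 and 5573 in EKLF-/-, so replicate 2 was more than 2 times as high as either other null library, and its call was lost without EKLF+/+ replicate 2 or 3.

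Globin genes are the main product of maturing erythroblasts, and beta-type genes switch from embryonic to adult forms in the fetal liver. Of 13 globin list members 11 were matched and 6 tested, and 4 of these fell (median -2.41, corrected -2.79). Here and for each list below, the median is that of the log2 fold changes of tested members, with the value after the length correction beside it, to be read beside 0.02 for all genes, of which 10.6% fell and 9.72% rose. Hbb-bs, an adult beta-globin, had 70249.5, 62344 and 99953 normalized counts in EKLF+/+ and 1601, 2776 and 1613 in EKLF-/-. The embryonic Hba-x had 14232, 30674 and 20866 against 547, 518 and 523, and the embryonic Hbb-y 98817, 138234 and 199633 against 33525, 38830.4 and 25590.1. None of these groups overlapped, and falls were 38.8-fold, 41.4-fold and 4.46-fold. By contrast Hbb-bh1, the other embryonic beta-type gene, had 1865, 2137 and 2972 against 3505, 2342 and 2959.9, which overlap, and it did not pass the test. Hba-a1 and Hba-a2 are near-identical copies to which a read cannot be assigned uniquely, so their counts at or near 0 do not measure them. Hbb-bs shares sequence with other adult beta-globin genes and is uncertain for the same reason. The globin list took 1.44% to 2.39% of reads on genes in EKLF+/+ and 0.246% to 0.336% in EKLF-/-.

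Heme synthesis moved in both directions. 4 of 9 (median -0.38, corrected -0.43) enzymes fell and 2 rose, of which 2 and 1 were kept. Heme synthesis falls numbered 2 without EKLF+/+ replicate 1 or 3 or EKLF-/- replicate 3, rises numbered 1 without EKLF+/+ replicate 1, 2 or 3 or EKLF-/- replicate 3, and the median was -0.24 without EKLF-/- replicate 2. Alas2, the erythroid first enzyme, had 9309.7, 10661 and 12312 normalized counts in EKLF+/+ and 5037, 5962 and 4976 in EKLF-/-. Alad, the second enzyme, had 6611, 6166 and 10753 against 2095, 3284 and 1870.3. Uros, the fourth enzyme, was higher, with 1802, 1534 and 2181 against 3589, 3717 and 3492. Alas1, the housekeeping first enzyme, was also called higher, at 1361, 1468 and 1089 against 1806, 4055 and 2252, but this call was lost without any 1 of the EKLF+/+ libraries or EKLF-/- replicate 3. Of the heme and iron-sulfur transport list, 6 of 18 (median -0.15, corrected -0.24, kept 4 lower and 0 higher) fell and none rose. Heme transport rises numbered 2 without EKLF-/- replicate 1, and the median was -0.10 without EKLF+/+ replicate 3. Its leading member Slc25a37 (mitoferrin-1), which brings iron into mitochondria, had 26577, 23830.0 and 28132 against 4282, 2864 and 3830.2, a 7.15-fold fall. Slc25a38, the mitochondrial glycine carrier for the first heme step, and Fam210b fell 1.63-fold and 1.69-fold, as did Blvrb (biliverdin reductase B) 2.12-fold, whereas Hmox1, which opens the heme ring, had overlapping groups and a log2 fold change of 0.091.

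Iron genes were called in both directions: 2 of 18 fell and 3 rose, and the median of -0.01 changed sign with the scaling and after the length correction (0.07). Iron rises numbered 5 without EKLF-/- replicate 1, and the median was -0.08 (EKLF+/+ replicate 2 left out) and 0.0017 (EKLF+/+ replicate 1 left out). Tfrc, the transferrin receptor, had 23001, 20669 and 27466 normalized counts in EKLF+/+ and 6055, 3398 and 5416 in EKLF-/-. Steap3, the endosomal ferric reductase, had 4198, 3788 and 4432 against 1710.3, 1759.6 and 2248. Both storage subunits were higher in the null cells: Ftl1, the ferritin light chain, had 22786, 23546 and 25309 against 53264, 83682 and 67883, and Fth1, the heavy chain, 24791, 25648 and 26332 against 42793, 57804 and 50216. Tfrc and Steap3 were 4.78-fold and 2.17-fold lower and the ferritin genes 2.86-fold and 1.96-fold higher, each without overlap and each kept. The uptake genes Tfr2 and Slc11a2 and the iron exporter gene of macrophages, Slc40a1, were not called (log2 fold changes -0.043, -0.14 and 0.19).

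Most red cell membrane and skeleton genes fell: 15 of 25 were called lower, none higher and 11 kept, with a median log2 fold change of -0.60 (-0.52 after the length correction). Membrane rises numbered 1 without EKLF-/- replicate 2. Add2 (beta-adducin) had 4922, 4662 and 4821 normalized counts in EKLF+/+ and 639.7, 564 and 575 in EKLF-/-. Ank1, which ties band 3 to the skeleton, had 15333, 14385 and 15372 against 4671, 2742 and 3749, and Slc4a1 (band 3) had 64625, 66950.0 and 75016 against 30294, 18041 and 25166. Kcnn4, the Gardos potassium channel, and Atp2b4, a calcium pump, fell 4.65-fold and 5.68-fold. Sptb, a large subunit of the skeleton, was not called (log2 fold change -0.60), but was called lower with DESeq2, with the Y-linked covariate and without EKLF-/- replicate 1 or 2. Of the blood group list, 8 of 18 (median -0.29, corrected -0.37, kept 6 lower and 0 higher) fell and none rose. Blood group rises numbered 1 without EKLF-/- replicate 1 or 2. Aqp1, a water channel, had 1642, 1464 and 1909 against 169.7, 133 and 149. Ackr1 (the Duffy receptor), Icam4 (a ligand of macrophage integrins) and Ermap fell 18.7-fold, 4.03-fold and 3.98-fold, and Kel and Cd55 2.12-fold and 1.88-fold. Bsg, the most abundant member by the mean over all libraries, was not called (log2 fold change 0.0068). Within EKLF+/+ alone Ermap, at 10010, 8710 and 10060 normalized counts, was above Bsg, at 6921, 7341 and 7802.

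Solute carriers of red cells had the largest number of kept falls beside the membrane list: 16 of 30 (median -0.44, corrected -0.34) fell, 10 of them kept, and 2 rose. Solute carrier falls numbered 10 without EKLF+/+ replicate 3, and rises numbered 1 without EKLF+/+ replicate 1 or EKLF-/- replicate 3. Slc43a1, a carrier of large neutral amino acids, had 2901, 2562 and 3031 normalized counts in EKLF+/+ and 263, 246 and 233 in EKLF-/-. Slc22a4, the ergothioneine carrier, had 738, 703 and 748 against 80.8, 93.8 and 83.5, and the glutamine carrier Slc1a5 4023, 3610.2 and 3801 against 1252, 1401 and 1330.1. Slc7a1 and Slc7a5, for cationic and large neutral amino acids, fell 2.28-fold and 1.74-fold, and the ion cotransporters Slc12a2 and Slc12a4 2.07-fold and 2.35-fold. The zinc exporter Slc30a1 rose, with 382, 428 and 389 against 1065, 780.5 and 1025. Among carbonic anhydrases and channels, 2 of 15 (median 0.08, corrected -0.06, kept 1 lower and 3 higher) fell and 5 rose. Carbonic anhydrase and channel falls numbered 1 without EKLF+/+ replicate 3 or EKLF-/- replicate 3, rises numbered 3 without EKLF+/+ replicate 1, 2 or 3 or EKLF-/- replicate 3, and the median was -0.02 without EKLF-/- replicate 2. Beside Car1, the more abundant Car2 rose from 19404, 16794 and 24064 to 40385, 39843 and 36867, and the low-count water channel gene Aqp8 from 41, 28.7 and 31.4 to 122, 89.8 and 98.6.

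**Figure D2:**
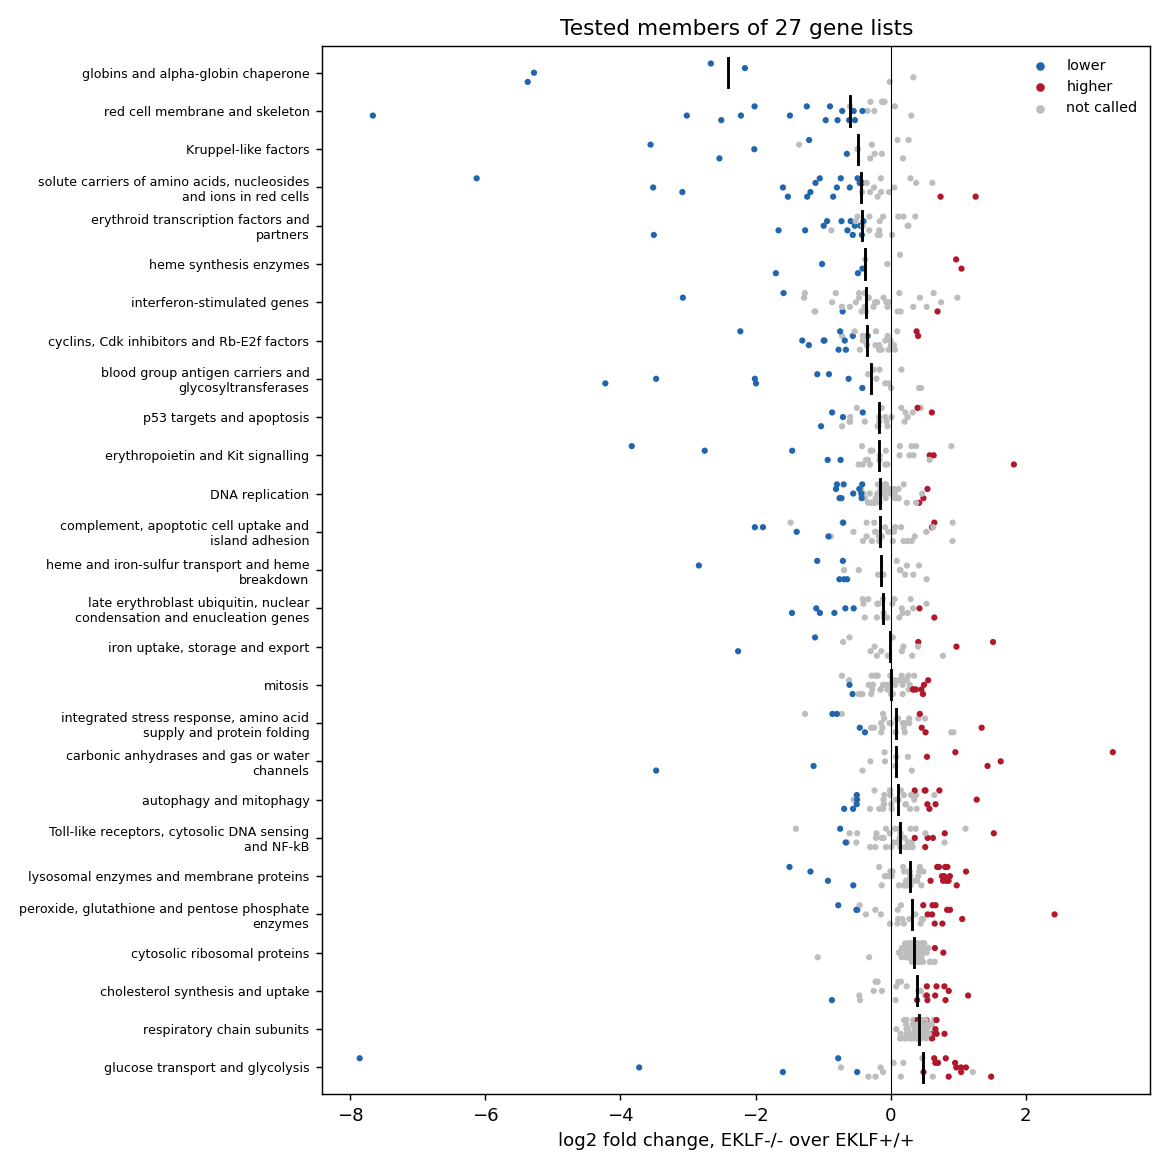
Each point is a tested member of 1 of 27 gene lists, placed by its log2 fold change, EKLF-/- over EKLF+/+ (horizontal axis); blue members were called lower, red higher and grey not called, and the black bar is the list's median. Lists are ordered by that median, from -2.41 for globins to 0.48 for glucose transport and glycolysis.

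Genes of glucose use were called in both directions. In the list of transport and glycolysis 5 of 28 (median 0.48, corrected 0.30) members fell and 12 rose, of which 3 and 4 were kept. Glycolysis falls numbered 3 without EKLF+/+ replicate 1 or 2, and rises numbered 4 without EKLF+/+ replicate 1 or 3. Pklr, the pyruvate kinase of red cells and liver, had 14212, 13899 and 15187 normalized counts in EKLF+/+ and 1189, 1043 and 1047 in EKLF-/-, a 13.2-fold fall. Slc2a1, the main red cell glucose transporter, had 4636, 5236 and 5169.9 against 1346, 1870.4 and 1764. In the other direction, Aldoa (aldolase A) had 7320.4, 9802 and 7299 against 16556, 28691 and 23254. Pfkm, the muscle-type phosphofructokinase, Tpi1 (triosephosphate isomerase) and Bpgm, which makes 2,3-bisphosphoglycerate, rose 2.06-fold, 1.96-fold and 2.16-fold, while the lactate and pyruvate carrier gene Slc16a1 fell 1.71-fold. Pkm, the other pyruvate kinase gene, was called 1.94-fold higher, a call that was lost without EKLF+/+ replicate 1 or 3 or EKLF-/- replicate 3.

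Enzymes against peroxide and of the pentose phosphate pathway were more often higher: 11 of 30 (median 0.32, corrected 0.17) rose, 5 of them kept, and 3 fell with none kept. Peroxide and pentose phosphate falls numbered 0 without EKLF+/+ replicate 1 or EKLF-/- replicate 3, rises numbered 6 without EKLF+/+ replicate 2, and the median was 0.17 without EKLF-/- replicate 2. After the length correction there were 10 rises and 7 falls. Beside Srxn1, the kept rises were Gclm, a subunit of the enzyme that limits glutathione synthesis (1.84-fold), catalase (Cat, log2 fold change 0.65), and the pentose phosphate genes Tkt and Taldo1 (1.59-fold and 1.79-fold). Cholesterol synthesis and uptake gave 10 rises and 1 fall among 27 (median 0.39, corrected 0.22, kept 0 lower and 3 higher). Cholesterol falls numbered 0 without EKLF+/+ replicate 2 or 3 or EKLF-/- replicate 3 and 2 without EKLF-/- replicate 1, and rises numbered 3 without EKLF+/+ replicate 2. Mvk and Pmvk, consecutive kinases of the mevalonate pathway, and the sterol exporter Abcg1 rose 1.74-fold, 1.76-fold and 2.21-fold and were kept. Respiratory chain subunits leaned upward without exception among 74 tested, with a median log2 fold change of 0.41 and 11 calls, but the median was 0.08 after the length correction and only the complex I gene Ndufs3 kept its call. Respiratory chain rises numbered 1 without EKLF+/+ replicate 1 or 2 or EKLF-/- replicate 3 and 42 without EKLF-/- replicate 1, and the median was 0.23 without EKLF-/- replicate 2. Cytosolic ribosomal proteins, also short, had a median of 0.34, which was 0.0053 after the correction, and 2 of 76 were called higher with none kept. Ribosomal protein falls numbered 1 without EKLF-/- replicate 2, rises numbered 0 without EKLF+/+ replicate 1 and 19 without EKLF-/- replicate 1, and the median was 0.11 without EKLF-/- replicate 2. Their summed counts were 783100, 763400 and 932500 in EKLF+/+ and 842400, 1362000 and 972000 in EKLF-/-, so replicate 2 was highest.

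Transcription factors of the erythroid program fell in part. Of 30 (median -0.42, corrected -0.26) tested, 13 fell, 5 of them kept, and none rose. Erythroid factor falls numbered 6 without EKLF+/+ replicate 1 or 2 or EKLF-/- replicate 3. Sox6, which silences embryonic globin genes with Bcl11a, had 1654, 1679 and 1814 normalized counts in EKLF+/+ and 191, 113 and 148 in EKLF-/-. Bcl11a itself had 2164, 1836 and 2039 against 656, 599 and 657. Zbtb7a (LRF), another globin repressor, and Lmo2, a bridging factor, fell 1.92-fold and 1.66-fold. Gata1, the master factor of the lineage, and Tal1 were not called and had log2 fold changes of 0.26 and -0.32, although Tal1 was called lower without EKLF-/- replicate 1 and with the Y-linked covariate. In the Kruppel-like family 5 of 15 (median -0.48, corrected -0.21, kept 4 lower and 0 higher) members fell, and beside Klf1 and Klf3 these included Klf11 (4.05-fold) and Klf16 (1.57-fold). The 5 falls and the 4 kept calls include Klf1, the deleted gene, whose fall the labels require. Kruppel-like rises numbered 1 without EKLF-/- replicate 2, and the median was -0.32 without EKLF-/- replicate 2. Erythropoietin and Kit signalling gave 5 falls and 3 rises among 30 (median -0.17, corrected -0.0044, kept 5 lower and 1 higher). Epo and Kit falls numbered 10 without EKLF-/- replicate 1, rises numbered 1 without EKLF+/+ replicate 1 and 5 without EKLF-/- replicate 1, and the median was -0.27 without EKLF-/- replicate 1. Erfe, the erythroblast hormone that lowers hepcidin, had 389.7, 445 and 357 against 24.5, 31.9 and 27.2, and the receptor tyrosine kinase gene Kit 2538, 2782 and 2236 against 1403, 1128 and 1429.7. Socs3 and Gab2 fell 2.75-fold and 1.67-fold, while the inhibitor Spry1 rose from 66.4, 85.2 and 65 to 240.4, 251 and 281.

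Most cell cycle genes were not called. Among cyclins, Cdk inhibitors and E2f factors 11 of 33 (median -0.35, corrected -0.35, kept 5 lower and 0 higher) fell and 2 rose. Cyclin and E2f falls numbered 6 without EKLF+/+ replicate 3, and rises numbered 0 without EKLF+/+ replicate 1, 2 or 3 or EKLF-/- replicate 3 and 1 without EKLF-/- replicate 1 or 2. Beside E2f2, the repressor E2f4 had 5733, 5165 and 5293 normalized counts in EKLF+/+ and 2367, 2421 and 2206 in EKLF-/-. Ccnd2 (cyclin D2), Cdkn2d (p19) and E2f1 fell 1.97-fold, 1.6-fold and 1.47-fold, and cyclin D3 (Ccnd3), the most abundant member, had a log2 fold change of -0.045. Of 54 (median -0.15, corrected -0.23) replication genes 10 fell and 3 rose, and the kept calls were the origin recognition subunits Orc1 and Orc5 (1.73-fold and 1.75-fold lower). Replication falls numbered 2 without EKLF+/+ replicate 1 or 3 or EKLF-/- replicate 3 and 17 without EKLF-/- replicate 2, and rises numbered 0 without EKLF+/+ replicate 2 or 3. Mitosis genes gave 2 falls and 7 rises among 48 (median 0.01, corrected 0.02), with none kept, and the median was -0.05 with the Y-linked covariate. Mitosis falls numbered 0 without EKLF+/+ replicate 1 or 3 or EKLF-/- replicate 3 and 6 without EKLF-/- replicate 1, rises numbered 0 without EKLF+/+ replicate 1, and the median was -0.06 (EKLF-/- replicate 1 left out), -0.03 (EKLF+/+ replicate 2 left out), -0.02 (EKLF-/- replicate 3 left out) and 0.09 (EKLF-/- replicate 2 left out). Of p53 targets and apoptosis genes, 4 of 28 (median -0.17, corrected -0.16) fell and 2 rose, and the kept falls were the stress genes Sesn1 and Sesn2. Apoptosis list falls numbered 2 without EKLF+/+ replicate 1 or 3 or EKLF-/- replicate 3, and rises numbered 0 without EKLF+/+ replicate 3.

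Clearance of organelles and proteins is a late step of red cell maturation and a task of the island macrophage. Lysosomal genes were more often higher, 13 of 44 (median 0.29, corrected 0.26) against 4 lower, with 4 and 2 kept. Lysosomal falls numbered 2 without EKLF+/+ replicate 1, 2 or 3 or EKLF-/- replicate 3, rises numbered 4 without EKLF+/+ replicate 1 or 3, and the median was 0.17 without EKLF-/- replicate 2. Ctsd (cathepsin D) had 4399.7, 4777 and 4949 normalized counts in EKLF+/+ and 7230.3, 9675 and 7552 in EKLF-/-, and Ctsc, which activates granule proteases, 1503, 1518 and 1737 against 2531, 3581 and 2507. Smpd1 (acid sphingomyelinase) and the proton pump gene Atp6v0d1 rose 1.71-fold and 1.79-fold, whereas Ctse and Acp5 fell 2.28-fold and 1.9-fold. Autophagy genes gave 5 falls and 8 rises among 41 (median 0.11, corrected 0.06), and the kept calls were the falls of Ulk1, the initiating kinase (1.61-fold), and Wipi2 (1.47-fold). Autophagy falls numbered 2 without EKLF+/+ replicate 1 or 3 or EKLF-/- replicate 3, rises numbered 0 without EKLF+/+ replicate 1 or 3, and the median was 0.06 without EKLF-/- replicate 2. Among late erythroblast ubiquitin, condensation and enucleation genes 6 of 28 (median -0.11, corrected -0.07) fell and 2 rose, with Cit, the citron kinase of cell division, kept (2.75-fold lower). Ubiquitin and enucleation falls numbered 2 without EKLF+/+ replicate 3, and rises numbered 0 without EKLF+/+ replicate 1, 2 or 3 or EKLF-/- replicate 3. The integrated stress response list had 4 falls and 4 rises among 32 (median 0.08, corrected -0.04, kept 2 lower and 0 higher), and Ppp1r15a, which ends the response, fell 1.82-fold while Atf4 was not called (log2 fold change -0.24) except without EKLF-/- replicate 2 and after the length correction, where it was lower. Stress response falls numbered 2 without EKLF+/+ replicate 1 or 2 or EKLF-/- replicate 3, rises numbered 0 without EKLF+/+ replicate 1 or EKLF-/- replicate 3 and 7 without EKLF-/- replicate 1, and the median was -0.02 without EKLF-/- replicate 2.

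Of 43 (median 0.13, corrected 0.07) Toll-like receptor, DNA sensing and NF-kB genes 2 fell and 6 rose. Toll-like and NF-kB falls numbered 0 without EKLF+/+ replicate 1 or 2 or EKLF-/- replicate 3 and 5 without EKLF-/- replicate 1, rises numbered 2 without EKLF+/+ replicate 1, and the median was 0.01 without EKLF-/- replicate 2. The kept rises were Relb, with 19.3, 33 and 27.1 normalized counts in EKLF+/+ and 64.4, 97.8 and 70.4 in EKLF-/-, and Irf5 (1.74-fold). Interferon-stimulated genes gave 3 falls and 1 rise among 37 (median -0.36, corrected -0.40, kept 1 lower and 0 higher). Interferon falls numbered 1 without EKLF+/+ replicate 3 or EKLF-/- replicate 3, rises numbered 0 without EKLF+/+ replicate 1, 2 or 3 or EKLF-/- replicate 2 or 3 and 2 without EKLF-/- replicate 1, and the median was -0.67 (EKLF+/+ replicate 1 left out) and 0.36 (EKLF+/+ replicate 3 left out). The antiviral gene Rsad2 had 78.4, 103 and 330.4 against 12.7, 30.9 and 17.1, with EKLF+/+ replicate 3 far above the other wild-type libraries, and the summed counts of the list were 20410 in that library against 8859 and 11110 in the other EKLF+/+ libraries and 10210 to 13660 in EKLF-/-. Of 36 (median -0.15, corrected -0.15, kept 3 lower and 0 higher) complement, uptake and adhesion genes 5 fell and 2 rose. Complement and uptake falls numbered 3 without EKLF+/+ replicate 2 or 3 or EKLF-/- replicate 3, rises numbered 0 without EKLF+/+ replicate 1 or 3 or EKLF-/- replicate 3, and the median was -0.04 without EKLF-/- replicate 3. Timd4, a receptor for phosphatidylserine on dying cells, had 60.3, 85.2 and 116 against 28.1, 25.9 and 16.1. Stab2, a scavenger receptor also made by sinusoidal endothelium, had 796, 551 and 564 against 282, 215 and 230.4, and Mertk, another uptake receptor, had a log2 fold change of -0.23.

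**Figure D3:**
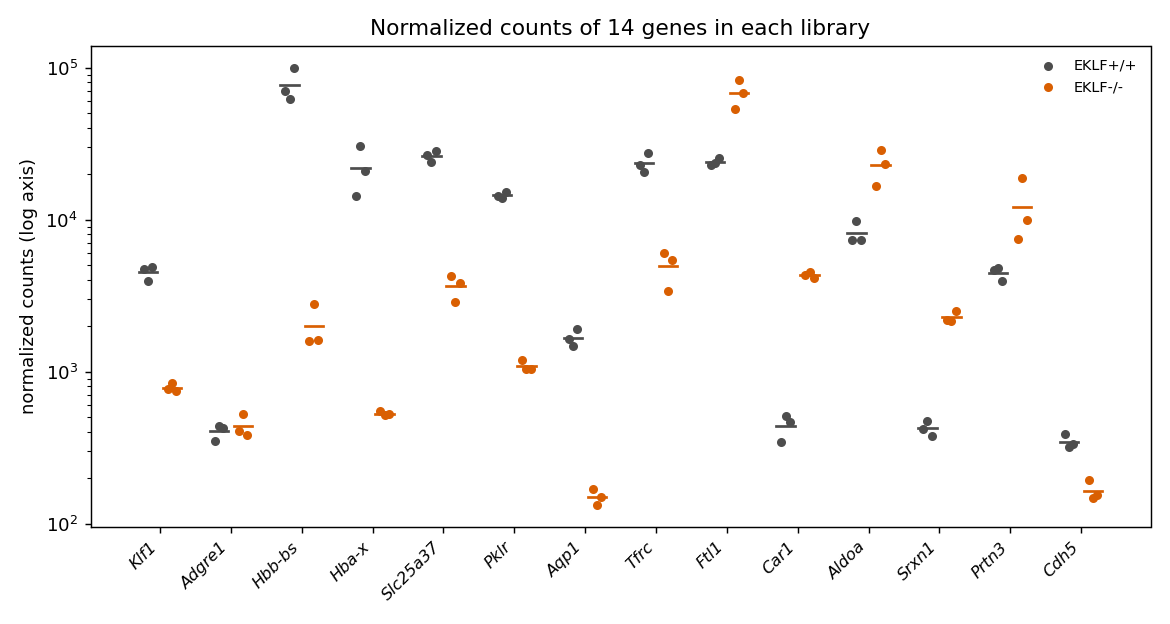
Normalized counts (vertical log axis) of 14 genes in each library; dots are libraries, EKLF+/+ grey and EKLF-/- orange, and the short line is the mean of 3. The groups are apart for each gene shown except Adgre1, and the widest gaps are those of Hba-x and Hbb-bs.

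Marker lists of 13 cell types were read as values. Of 22 macrophage markers 21 were tested, 3 fell and 2 rose, and their summed counts were 12340, 15560 and 15800 in EKLF+/+ and 16340, 27040 and 18560 in EKLF-/-, with Lyz2 the most abundant. Their median log2 fold change was 0.12, but -0.15 after the length correction, and 1 fall was kept. Macrophage falls numbered 1 without EKLF-/- replicate 3, rises numbered 0 without EKLF+/+ replicate 1, 2 or 3 or EKLF-/- replicate 3, and the median was -0.25 (EKLF-/- replicate 2 left out), -0.02 (EKLF+/+ replicate 1 left out) and 0.24 (EKLF-/- replicate 3 left out). The higher sums in EKLF-/- rest largely on Lyz2 (5425, 7667 and 7159 against 8526, 15434 and 11019), whose call was lost without any 1 EKLF+/+ library, without EKLF-/- replicate 3 and after the length correction. Cd163, a scavenger receptor of hemoglobin, was below the count filter. As RPKM, which divides by exon length, Adgre1 was at 9.57 in EKLF+/+ and 10.4 in EKLF-/-. Mpo (myeloperoxidase), of granulocyte precursors, was at 1248 and 1849, and Slc4a1, of red cell precursors, at 1161 and 413. Both were thus more abundant than the transcript of the sorting antigen. Mpo and Slc4a1 lead the granulocyte and late erythroblast lists (means of 58700 and 46680 normalized counts), whereas Lyz2 (9205), not Adgre1, leads the macrophage list. Shares of cells cannot be read from single genes. Granulocyte markers gave 6 rises and 1 fall among 14 (median 0.56, corrected 0.33), none kept, and sums of 78980, 99850 and 77280 in EKLF+/+ and 105400, 204900 and 128300 in EKLF-/-. Granulocyte falls numbered 0 without EKLF+/+ replicate 2 or 3 or EKLF-/- replicate 3, rises numbered 0 without EKLF+/+ replicate 3, and the median was 0.37 without EKLF-/- replicate 2. Late erythroblast markers gave 8 falls and 1 rise among 14 (median -0.69, corrected -0.83, kept 6 lower and 1 higher). Their sums were 189700, 186300 and 243000 against 82940, 64310 and 75160, with Slc4a1 the most abundant by the mean over all libraries. In EKLF+/+ alone the mean of Hbb-bs (77520) was above that of Slc4a1 (68860). Without globin genes 7 late erythroblast markers fell and the median was -0.50. Early erythroid progenitor markers gave 4 falls and 1 rise among 12 (median -0.15, corrected -0.24, kept 2 lower and 1 higher). Their sums were 19910, 20740 and 20370 against 18980, 19520 and 18630. These sums include the 1 rise, Car1, with 344, 512 and 466 against 4345, 4493 and 4111. Their closeness therefore does not mean that the other members were unchanged. Early erythroid progenitor falls numbered 2 without EKLF+/+ replicate 1 or 2 or EKLF-/- replicate 3, and the median was -0.25 without EKLF+/+ replicate 3. The part of these cells in the falls of red cell genes was not tested.

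Endothelial markers were lower in all 12 tested by log2 fold change (median -0.75, corrected -0.72), and 8 were called, 4 of them kept; their sums were 4134, 4074 and 3508 in EKLF+/+ and 2374, 2267 and 2147 in EKLF-/-, with Eng the most abundant. Endothelial falls numbered 4 without EKLF-/- replicate 3. Cdh5 (VE-cadherin) had 387, 319 and 331 against 194, 147 and 154, without overlap. Mesenchymal and stellate markers gave 6 falls among 10 (median -1.20, corrected -1.17), none kept, and sums of 1259, 2588 and 1144 against 894, 500 and 642, with Reln the most abundant. Mesenchymal falls numbered 0 without EKLF-/- replicate 3. Stem and progenitor markers gave 5 falls among 13 (median -0.57, corrected -0.74, kept 3 lower and 0 higher), with Flt3 at 375, 453 and 386 against 142, 133 and 192, and sums of 10010, 11520 and 9497 against 7735, 7511 and 7785. Stem falls numbered 3 without EKLF+/+ replicate 2 or EKLF-/- replicate 3, and the median was -0.88 without EKLF+/+ replicate 3. Of 5 (median -0.75, corrected -0.57, kept 2 lower and 0 higher) primitive erythroid markers 3 fell, and Hbb-y was the most abundant. Without globin genes 1 fell and the median was -0.34. Monocyte markers gave 2 rises among 12 (median 0.36, corrected 0.43, kept 0 lower and 2 higher), namely Ccr2 and Clec5a (1.68-fold and 1.8-fold), mast cell and basophil markers 2 among 6 (median 0.79, corrected 0.50, kept 0 lower and 1 higher), megakaryocyte markers 1 fall and 1 rise among 18 (median 0.01, corrected -0.09, kept 0 lower and 1 higher), and lymphoid markers 2 falls and 1 rise among 7 (median -0.18, corrected -0.31, kept 0 lower and 0 higher). Monocyte falls numbered 1 without EKLF-/- replicate 1. Mast cell and basophil rises numbered 1 without EKLF+/+ replicate 1, 2 or 3 or EKLF-/- replicate 3, and the median was 0.38 without EKLF-/- replicate 2. Megakaryocyte falls numbered 0 without EKLF+/+ replicate 3 or EKLF-/- replicate 3 and 2 without EKLF+/+ replicate 1, rises numbered 3 without EKLF-/- replicate 1, and the median was -0.16 (EKLF+/+ replicate 1 left out), -0.08 (EKLF-/- replicate 2 left out), -0.04 (EKLF+/+ replicate 3 left out) and 0.22 (EKLF+/+ replicate 2 left out). Lymphoid falls numbered 0 without EKLF+/+ replicate 1, 2 or 3, rises numbered 0 without EKLF+/+ replicate 1, 2 or 3 or EKLF-/- replicate 3, and the median was -0.40 (EKLF-/- replicate 2 left out), 0.02 (EKLF+/+ replicate 1 left out) and 0.11 (EKLF-/- replicate 1 left out). The megakaryocyte median also changed sign with the scaling, and the lymphoid median with a filter of 10 counts in every library (0.06). No hepatoblast marker of 14 (median 0.27, corrected 0.04) was called, and Afp, the most abundant, had 8111, 7289.9 and 10966 against 9417, 11052 and 9514. Hepatoblast falls numbered 1 without EKLF-/- replicate 1 or 2, rises numbered 1 without EKLF-/- replicate 1, and the median was 0.08 (EKLF+/+ replicate 2 left out) and 0.47 (EKLF+/+ replicate 3 left out). The defining markers Tpsab1, of mast cells, and Cdx4, of early primitive blood, were at 0 in every library. The ribosomal protein gene Rpl26 and the respiratory chain gene Ndufs5 were also at 0 in every library, so a 0 in these counts need not mean an absent transcript.

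Because EKLF binds CACCC sequences, RefSeq promoter windows of 300 bases (GRCm38.p6) were searched on both strands for CCNCNCCC and for the narrower CCACACCC, which is contained in it. Of all genes tested 10143 had a window, and 71.7% of these held CCNCNCCC and 4.58% CCACACCC. Among genes called lower with a window the shares were 78% and 4.73%, and among genes called higher 70.2% and 4.92%. Of the 15 largest falls 10 had a window, and 7 held CCNCNCCC and 2 CCACACCC; of the 15 largest rises also 10 had one, and 4 and 0 did. The 2 falls with CCACACCC, Hbb-bs (minus strand, chr7:103827879-103828178) and 1300017J02Rik (minus strand, chr9:103288248-103288547), are printed 5′ to 3′ because they are the only ones with the narrower motif among those 10 of the 15 largest falls, and the motif is in capitals on either strand.
Hbb-bs: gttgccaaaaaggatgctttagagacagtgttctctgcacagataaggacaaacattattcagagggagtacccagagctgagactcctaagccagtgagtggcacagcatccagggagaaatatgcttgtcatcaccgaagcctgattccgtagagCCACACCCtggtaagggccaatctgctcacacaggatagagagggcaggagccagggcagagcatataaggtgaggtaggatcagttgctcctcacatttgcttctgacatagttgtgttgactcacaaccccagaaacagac
1300017J02Rik: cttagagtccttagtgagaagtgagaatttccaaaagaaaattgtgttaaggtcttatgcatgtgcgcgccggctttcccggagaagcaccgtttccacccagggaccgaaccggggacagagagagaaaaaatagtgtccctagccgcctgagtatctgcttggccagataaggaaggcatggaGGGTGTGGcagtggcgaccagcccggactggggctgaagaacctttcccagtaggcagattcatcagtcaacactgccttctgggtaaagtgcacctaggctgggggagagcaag
A match is a description of these letters and was not tested as a binding site.

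Genes near Klf1 on chromosome 8 were counted by position, and no test of their share was made. Of 82 tested genes that start within 5 Mb of Klf1, 19.5% were lower and 13.4% higher, against 10.6% and 9.72% of all genes tested. The part of the 129S4/SvJae background in these calls was not tested. Over whole chromosomes, leaving aside Y with 4 tested genes and no call, the share called lower ran from 8.07% on chromosome 7 to 14.7% on chromosome 13, and the share called higher from 5.59% on chromosome 18 to 15.1% on chromosome 17. Of 379 tested lncRNAs, 10.8% were lower and 5.8% higher.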

How the data were processed

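RNA-Seq of sorted F4/80+ cells was analysed for 3 EKLF+/+ and 3 EKLF-/- libraries, grouped by genotype as labelled; the labels list separate samples and the methods call them biological triplicates. The counts per gene were made by the authors, using STAR for alignment against mm10 and then htseq-count; tool versions and annotation were not stated. The first file also held 5 columns that repeat the counts of the other libraries exactly, and these were not used. Each file had 23337 gene lines, of which 2287 carried an outdated symbol that was replaced, and 23043 were found in RefSeq. Reads on genes numbered 10695514 to 15362161 per library, 27.3% to 32.8% of all htseq-count reads, with 38.7% to 44.2% on no gene and 24.8% to 29.8% not unique.

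A gene entered the test if 3 or more of the 6 libraries had 10 or more reads on it (12753 genes), with the quasi-likelihood test of edgeR 4.0.16 in R 4.3.3, after TMM scaling. Genes with a Benjamini-Hochberg adjusted p under 0.05 were called lower or higher, and normalized counts are scaled by TMM to the mean library. The biological coefficient of variation was 0.163. The pipeline was tested on simulated data with 50 planted changes of each size and direction. Of planted 2-fold changes 72% of falls and 94% of rises were called, and of 4-fold changes 92% and 100%. Named genes are the 15 largest falls and rises among called genes whose mean over all libraries reached 100 normalized counts and whose groups did not overlap. The 27 pathway and 13 marker lists were chosen by hand with earlier results of these data known, and no test was applied to a list. List members Hbb-bt, Ahsp and Ly6g were not analysed here. For calls with 3 or fewer reads in every library of a group, ratios of summed reads were given with a 95% binomial interval.

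Alternatives were DESeq2 1.42.0, other scalings and filters, a 2-fold limit, removal of globin genes, a replicate block and each library left out. A covariate of Y-linked counts and a correction for exon length (loess with span 0.5 on log2 CPM with a pseudocount of 2) were added after the data were seen.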

Additional observations from a re-analysis of the deposited data

How the results depend on the processing

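The main counts were 1356 genes lower and 1239 higher in EKLF-/-. With a limit of at least 2-fold they were 591 and 275. In leave-one-out fits the range was 575 to 1889 lower and 346 to 1730 higher. Calls were fewest without EKLF+/+ replicate 1 (576 and 346), 2 (609 and 417) or 3 (632 and 370) or EKLF-/- replicate 3 (575 and 426), and most without EKLF-/- replicate 1 (1889 and 1730); without EKLF-/- replicate 2 they were 1734 and 1288. DESeq2 gave 1732 and 1498, library size alone 1098 and 1655, upper quartile factors 1275 and 1335, and no filter 1543 and 1302.

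A replicate block gave 1037 lower and 864 higher. Libraries with the same replicate number did not resemble each other, with correlations of group-centred log2 CPM of -0.00542, 0.0034 and 0.0561, so no pairing was used.

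Of the alternatives chosen after the data were seen, Y-linked counts as a covariate gave 1733 and 1657, and the length correction 1532 and 1412, with 2088 calls shared with the main test. The log2 fold change of Klf1 ran from -2.49 to -2.79, the last with the length correction.

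Limits: the groups have 3 libraries each, the sexes were not balanced, and the null allele and its strain background cannot be told apart. Cell makeup and RNA per cell cannot be told apart in bulk. Multiply mapped reads, which include alpha-globin, were not counted on genes.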

Other observations

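The most abundant gene in both groups was Rn45s, the ribosomal RNA precursor, with 355279, 710724 and 397814 normalized counts in EKLF+/+ and 246322, 301795 and 264175 in EKLF-/-, so EKLF+/+ replicate 2 was highest and the groups did not overlap. Lars2, the mitochondrial leucine tRNA synthetase, followed the same order within EKLF+/+, with 28376, 93101 and 52451 against 15324, 25509 and 21930. Both were called lower (edgeR adjusted p = 0.0471 and 0.0322), with EKLF+/+ replicate 2 the highest library for each. Whether these calls were kept in the further fits is not given here. How much RNA other than mRNA each library carried was not tested.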
